A study of Gallus gallus with 9 samples.

Results

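HMOX1 and BLVRA, the genes of the enzymes that break heme down in 2 successive steps, were followed across the circulating cells and the heart of the chick embryo. All probe sets that the platform annotation assigns to either symbol were taken. They number 5, with 1 for HMOX1 (Gga.2039.1.S1_at) and 4 for BLVRA (Gga.17674.1.S1_at, GgaAffx.23872.1.S1_at, Gga.6017.1.S1_s_at and Gga.11214.1.S1_at), out of 38439 chicken probe sets that carry 13009 gene symbols. The genes were picked because the study lists HMOX1 among those higher in non-red blood cells and because BLVRA was already known to be lower there on these arrays. The study kept only genes that were not high in the heart, so the heart levels of HMOX1 also took part in its choice. The contrast between the blood fractions is therefore described without a test, while the contrast between stages was tested.

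Blood drawn from the ventricles of chick embryos at embryonic day 4 (E4) and day 6 (E6) was separated by density into a heavy red blood cell fraction (RBC) and a light fraction of the other cells (nRBC). There are 2 arrays for each stage and fraction, from separate pools of embryos, and 1 array of whole heart from E6 as negative control. Whether an RBC and an nRBC array came from the same pool is not stated, and the fractions were compared unpaired. The heading of the heart column in the deposited table says E4, but the sample label and the methods say E6, which is used here. No strain, sex or treatment is given in the labels. The fractions are enriched and not pure, since a density gradient was the only separation. The study checked them by cell stains and flow cytometry and describes the nRBC as highly depleted of red cells. It reports nRBC as benzidine negative and, by quantitative PCR, hemoglobins as significantly higher in RBC.

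Heme oxygenase opens the heme ring and releases biliverdin, iron and carbon monoxide. Biliverdin reductase A then turns biliverdin into bilirubin. HMOX1 is the inducible heme oxygenase and is abundant in the macrophages that take up aged red cells, whereas HMOX2 is the constitutive form. Red cells of birds keep their nucleus, so that transcripts can still be measured in them, and the main bile pigment of the chicken is biliverdin.

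Values are MAS5 signals, the Affymetrix measure of brightness, on the log2 scale after quantile normalization over the 8 blood arrays, with the heart array mapped onto the same distribution. A detection call (Present, Marginal or Absent) accompanies each signal. Levels are not compared between probe sets, whose probes differ in affinity. Between 22.4% and 36.0% of the probe sets were Present on a blood array and 40.5% on the heart array. Median deposited signals ran from 11.4 to 33.3, and 3 blood arrays (replicate 2 of E4 RBC, E6 RBC and E4 nRBC) had 188 to 256 signals under 1 against 1182 to 2172 on the other 5. GAPDH has control probe sets at both ends of its transcript, and their 3′ over 5′ ratio, higher in degraded RNA, was 9.44 to 11.1 in RBC and 12.7 on E6 nRBC replicate 1, against 4.22 to 5.99 on the other nRBC arrays and 2.08 on the heart array. The labelled cell types were compared with marker lists. The 6 red cell markers measured (EPB42, SPTB, SLC4A1, ANK1, RHAG and TAL1) summed to 13704 to 21719 linear units on the RBC arrays and to 6094, 7792 and 8071 on 3 nRBC arrays, but to 22606 on E6 nRBC replicate 1, above every RBC array. None of the 6 passed the test between the fractions (limma, described further on). At an unadjusted p under 0.05 there was only EPB42.

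HMOX1 was near the bottom of the signal range in RBC and well up in it in nRBC. The deposited HMOX1 signals were 1.40 and 4.60 in E4 RBC and 3.30 and 4.50 in E6 RBC. They were 116 and 382 in E4 nRBC, 181 and 107 in E6 nRBC and 29.2 in the heart. Every nRBC signal thus lay far above every RBC signal, also before any scaling between arrays.

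On the normalized log2 scale HMOX1 measured 1.19 and 1.57 in E4 RBC and 2.43 and 1.39 in E6 RBC. It measured 6.70 and 7.47 in E4 nRBC and 7.88 and 6.65 in E6 nRBC. The fractions did not overlap, with means of 1.64 ± 0.55 in RBC and 7.18 ± 0.60 in nRBC (SD, n = 4). Of all probe sets, 7.97% had every nRBC array above every RBC array. HMOX1 was chosen on this contrast, so nothing is read from its place in that group.

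HMOX1 was called Absent on all 4 RBC arrays, so that its level there has only an upper limit. Set against the lowest Present signal on each RBC array (2.34 to 3.11 on the log2 scale), HMOX1 was at least 21.3-fold higher in nRBC. This limit is taken over all probe sets and is not a strict bound for this one. In nRBC it was Present on 3 of the 4 arrays. The exception was E4 nRBC replicate 2, where the call was Absent although the deposited signal, 382, was the highest of all 9 arrays. Without that array the measured log2 difference was 5.38, compared with 5.53 with it, and leaving out any 1 of the 8 arrays gave 5.30 to 5.85. Adding 16 to each signal before taking logs, which damps low signals, brought the difference to 3.06.

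**Figure D1:**
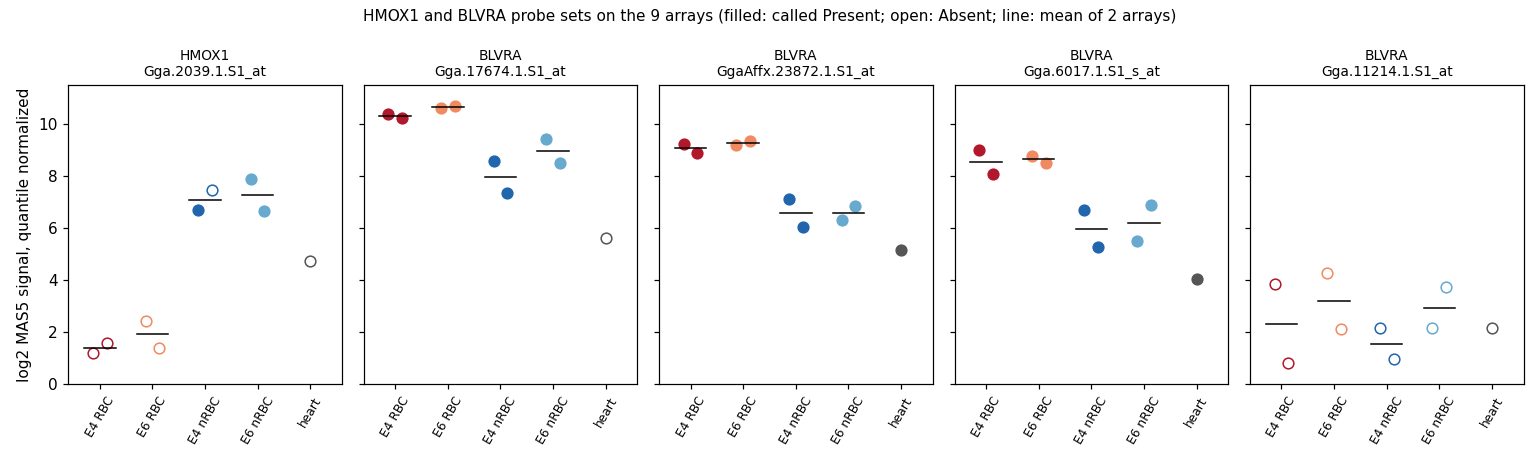
The plot gives the normalized log2 MAS5 signal (vertical axis) of the 5 probe sets on each of the 9 arrays, grouped by stage and fraction (horizontal axis), with filled points for Present, open points for Absent and lines for the mean of 2 arrays. HMOX1 lies at 1.19 to 2.43 in RBC and 6.65 to 7.88 in nRBC, while the 3 detected BLVRA probe sets run the other way and are lowest in the heart.

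BLVRA, which acts on the product of HMOX1, had the opposite profile by 3 of its 4 probe sets. All 3 were Present on all 8 blood arrays, and in each of them every nRBC array lay below every RBC array, as in 6.79% of all probe sets. BLVRA, too, was chosen on this contrast. The BLVRA probe sets share their arrays and their target, so they are not independent measurements.

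By Gga.17674.1.S1_at, its brightest probe set, BLVRA measured 10.39 and 10.25 in E4 RBC and 10.62 and 10.71 in E6 RBC. The same probe set measured 8.59 and 7.33 in E4 nRBC and 9.41 and 8.50 in E6 nRBC. The means were 10.49 ± 0.21 in RBC and 8.46 ± 0.86 in nRBC (SD, n = 4), a log2 difference of -2.03 or 4.09-fold. The RBC arrays lay close together and the nRBC arrays spread widely, from 7.33 to 9.41. Within the 3 arrays with few low signals, which hold 1 nRBC array, the difference was -3.15, and within the other 5 it was -1.67.

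By GgaAffx.23872.1.S1_at, BLVRA measured 9.22 and 8.90 in E4 RBC, 9.19 and 9.33 in E6 RBC, 7.12 and 6.04 in E4 nRBC and 6.32 and 6.85 in E6 nRBC. The means were 9.16 ± 0.18 and 6.58 ± 0.49 (SD, n = 4), so that RBC were 5.96-fold higher. This was the 140th lowest nRBC minus RBC difference of all probe sets, given as a description only.

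By Gga.6017.1.S1_s_at, BLVRA measured 9.02 and 8.07 in E4 RBC, 8.77 and 8.50 in E6 RBC, 6.68 and 5.27 in E4 nRBC and 5.51 and 6.90 in E6 nRBC. The means were 8.59 ± 0.41 and 6.09 ± 0.82 (SD, n = 4), or 5.65-fold higher in RBC. The ending _s_at marks a probe set whose probes match more than 1 transcript, of the same gene or of different ones, and which it is here was not checked.

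The 3 probe sets did not order the nRBC arrays alike. E6 nRBC replicate 1 was the highest nRBC array by Gga.17674.1.S1_at (9.41), but was below both E4 nRBC replicate 1 and E6 nRBC replicate 2 by the others (6.32 and 5.51). All 3 put E4 nRBC replicate 2 lowest after normalization. By deposited signal only Gga.17674.1.S1_at did. GgaAffx.23872.1.S1_at and Gga.6017.1.S1_s_at had their lowest deposited signals on E6 nRBC replicate 1 (65.7 and 37.9, against 138 and 73.1 on E4 nRBC replicate 2). E6 nRBC replicate 1 is also the nRBC array whose red cell markers summed to 22606, and the part of red cells in its BLVRA signal was not tested. Without E6 nRBC replicate 1 the log2 differences between the fractions were -2.37, -2.52 and -2.33 in the order given.

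The last BLVRA probe set, Gga.11214.1.S1_at, was Absent on all 9 arrays. Its log2 signals ran from 0.80 to 4.26 in RBC and from 0.96 to 3.73 in nRBC, overlapping fully, and measured 2.16 in the heart. No fold is given for it, as neither fraction was detected.

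HMOX1 and the detected BLVRA probe sets did not overlap between the fractions, so their signs at each stage taken alone were already fixed. Both genes were chosen on this contrast, and the differences within each stage are given as a description of size only. For HMOX1 the nRBC minus RBC difference was 5.71 at E4 and 5.36 at E6 on the log2 scale. For BLVRA it was -2.36 and -1.71 by Gga.17674.1.S1_at, -2.48 and -2.67 by GgaAffx.23872.1.S1_at and -2.57 and -2.43 by Gga.6017.1.S1_s_at. Each of these rests on 2 arrays against 2.

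These are bulk samples, so fewer cells that express a gene and less of its RNA in each cell cannot be told apart. Markers of several cell types differed between the fractions along with HMOX1. The 10 macrophage markers measured summed to 522 to 791 linear units in RBC, and 2 of the 10 were Present on each RBC array. In nRBC they summed to 1135 and 1504 at E4 and to 3202 and 897 at E6, with 7 or 8 of the 10 Present. The macrophage receptors CSF1R (at least 12.4-fold, adjusted p = 0.0041 from limma) and TIMD4 (at least 14.6-fold, adjusted p = 0.0047) and the complement chain C1QB (at least 24.1-fold, adjusted p = 0.0049) were higher in nRBC, and the other 7 did not pass. Among these the receptor MRC1 had the opposite sign, with every nRBC array below every RBC array (log2 difference -1.80, limma adjusted p = 0.0833), and MARCO and LGALS3 had differences of -0.55 and -0.28. C1QC and LGALS3 were Present on no blood array. The limits given for CSF1R, TIMD4 and C1QB are, as for HMOX1, not strict bounds.

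Over the 4 nRBC arrays the macrophage sum and HMOX1 had the same order, E6 replicate 1 being highest, followed by E4 replicate 2, E4 replicate 1 and E6 replicate 2. The thrombocyte and red cell sums also put E6 replicate 1 first and E4 replicate 2 second, and E6 replicate 1 was highest in all 5 marker lists. For HMOX1 this order holds after normalization, whereas its deposited signal was highest on E4 nRBC replicate 2. With 4 arrays this is a description only. The 5 thrombocyte markers summed to 4080 to 7373 in RBC and 10837 to 20857 in nRBC, and the 8 endothelial markers to 254 to 703 and 512 to 1061. On each RBC array 1 of the 5 thrombocyte markers and 0 of the 8 endothelial markers were Present. TUBB1, at 11.96 to 12.83 on the log2 scale in RBC, made up most of the thrombocyte sum there. It was Present on all 4 RBC arrays and did not set thrombocytes apart from red cells here. The thrombocyte sum in RBC is therefore not read as a measure of thrombocytes. On the nRBC arrays all 5 thrombocyte markers and 3 to 5 endothelial markers were Present. Of the thrombocyte markers 4 passed as higher in nRBC, namely ITGB3, GP9, F13A1 and RGS18, and of the endothelial markers 3, namely KDR, CDH5 and TEK. The study lists ITGB3, F13A1 and RGS18 among the genes higher in nRBC on these same arrays, so nothing is read from their passing. Of the thrombocyte and endothelial markers that did not pass, TUBB1 (-0.82), ESAM (-1.30) and EGFL7 (-1.37) had differences of the opposite sign. The part of these cells in the HMOX1 difference was not tested.

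**Figure D2:**
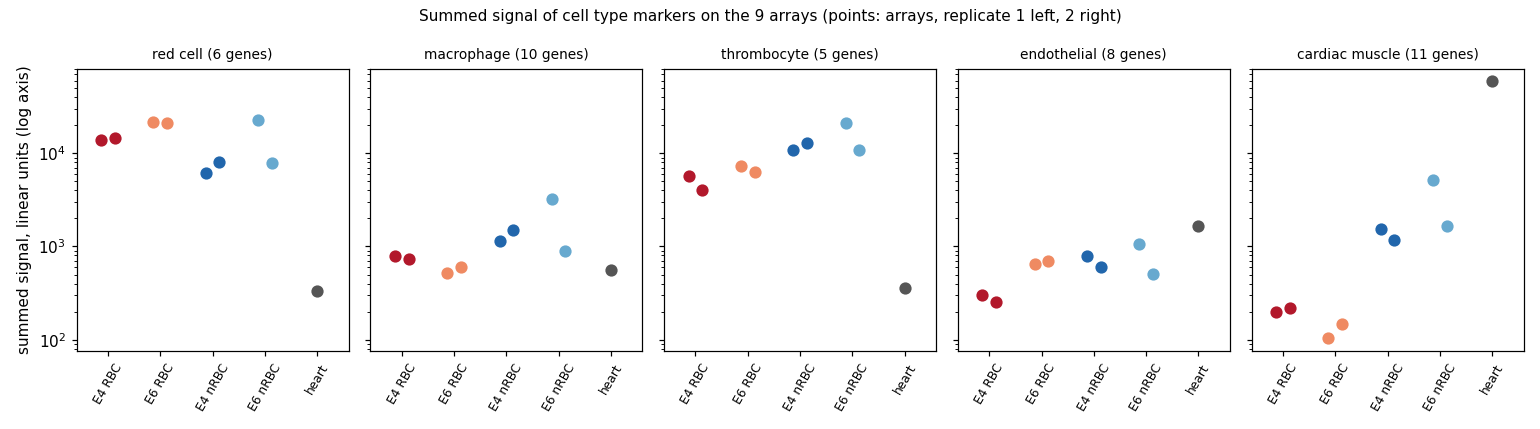
The plot gives the summed linear signal of each marker list (vertical axis, log scale) on each array, grouped by stage and fraction (horizontal axis), with 1 point per array. Macrophage markers reach 3202 on E6 nRBC replicate 1 and stay at 791 or less in RBC, red cell markers on that array reach 22606, and cardiac markers are highest in the heart, at 58988.

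Both genes were lower in the heart than in nRBC. The heart, from which the blood was drawn, was the study's negative control and is a single array, for which no test was made. HMOX1 was Absent in the heart at 4.71, below every nRBC array and above every RBC array. Against this heart signal its nRBC mean was 5.52-fold higher, which is not a strict bound. Heart minus nRBC was -2.46 on the log2 scale, and -2.55 to -1.92 under other settings. No fold is given between heart and RBC, both Absent.

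The 11 cardiac muscle markers summed to 58988 in the heart, to 1168 to 5125 in nRBC and to 104 to 219 in RBC, and 7 of them passed as higher in nRBC, among them the troponins TNNT2 and TNNC1. Of the 4 that did not pass, TTN (-0.48) and RYR2 (-0.73) had differences of the opposite sign, and TTN was Absent in the heart. The part of heart tissue in the HMOX1 signal of nRBC was not tested.

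BLVRA had its lowest level in the heart by all 3 detected probe sets, below every blood array, as did 18.3% of all probe sets. By Gga.17674.1.S1_at it was Absent there at 5.63. Against that signal RBC were 29.0-fold and nRBC 7.09-fold higher, which are not strict bounds. Heart minus RBC was -4.86 on the log2 scale, and -4.84 to -4.38 under other settings. By GgaAffx.23872.1.S1_at BLVRA was Present in the heart at 5.16, and RBC were 16-fold and nRBC 2.69-fold higher. By Gga.6017.1.S1_s_at it was Present at 4.03, and RBC were 23.7-fold and nRBC 4.19-fold higher.

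From the lowest to the highest mean, HMOX1 ran E4 RBC (1.38), E6 RBC (1.91), heart (4.71), E4 nRBC (7.09) and E6 nRBC (7.27). The stages of each fraction overlapped. By Gga.17674.1.S1_at BLVRA ran heart (5.63), E4 nRBC (7.96), E6 nRBC (8.96), E4 RBC (10.32) and E6 RBC (10.67), the nRBC stages overlapping and the RBC stages not.

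Neither gene passed the test for a change between E4 and E6 in either fraction. The test was limma with a mean for each of the 4 blood groups, and p-values were adjusted over all probe sets by Benjamini-Hochberg. At an adjusted p under 0.05 it called 0% of the probe sets in RBC, in nRBC and for the difference of the stage effects between the fractions, and at an unadjusted p under 0.05 it had 7.96%, 4.41% and 5.30%.

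HMOX1 differed between E6 and E4 by 0.53 in RBC (SE 0.67, 95% interval -1.05 to 2.11, limma adjusted p = 0.880), where it was Absent throughout. In nRBC it differed by 0.18 (SE 0.67, interval -1.40 to 1.76, limma adjusted p = 0.9997). The difference of these stage effects was -0.35 (interval -2.58 to 1.88, limma adjusted p = 0.9999). With 2 arrays a group the intervals are wide, and none of them shows that HMOX1 was the same at both stages.

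For BLVRA the largest stage difference among its detected probe sets was that of Gga.17674.1.S1_at in nRBC, 0.997 (SE 0.62, interval -0.46 to 2.46, limma adjusted p = 0.9997). Its arrays overlapped between the stages, and it ran from 0.37 to 1.63 with 1 array left out (0.37 without E4 nRBC replicate 2, 0.55 without E6 nRBC replicate 1 and 1.63 without E4 nRBC replicate 1) and was 0.16 without quantile normalization. The other detected probe sets gave 0.0014 and 0.23 for the same contrast. In RBC the 3 gave 0.35, 0.20 and 0.09. By Gga.17674.1.S1_at both E6 RBC arrays lay above both E4 RBC arrays, as in 19.1% of all probe sets (19.7% lay the other way). By the other BLVRA probe sets the RBC stages overlapped, and in nRBC all 5 member probe sets overlapped between the stages. In nRBC 17.1% of all probe sets had both E6 arrays higher and 16.1% both lower. The difference of the stage effects was 0.65 (0.015 to 1.28 with 1 array left out), -0.20 and 0.14. The smallest adjusted p over all member probe sets was 0.880, and under the alternative settings it was 0.675.

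**Figure D3:**
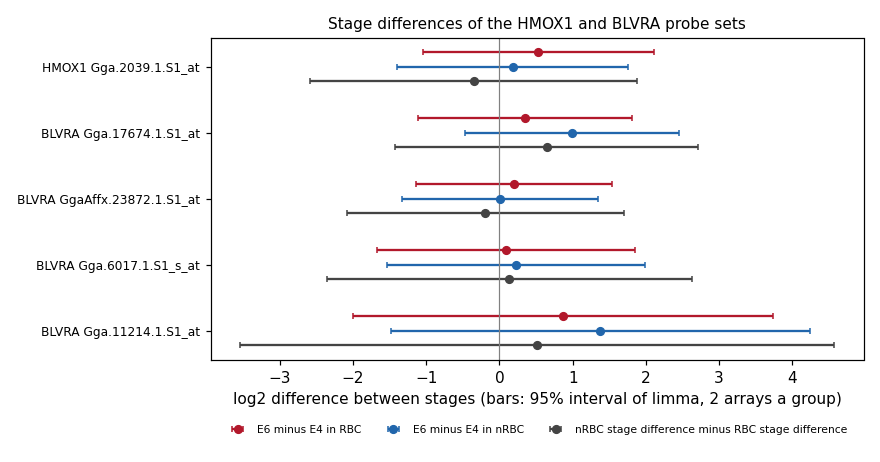
The plot gives log2 differences between E6 and E4 (horizontal axis) for the 5 probe sets (vertical axis) in RBC, in nRBC and as the difference of both, with bars for the 95% interval of limma on 2 arrays a group. Every interval includes 0.

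Other genes of heme handling were called between the fractions about as often as all probe sets. Of 46 genes listed in 6 groups, 39 were measured and 28 of these were Present on at least 1 blood array. In the limma comparison of 4 nRBC with 4 RBC arrays, 1 of the 39 was higher in nRBC, 1 was lower and 37 did not pass. Of all probe sets, 4.56% were higher and 0.809% lower, 5.37% together. The median nRBC minus RBC difference was -0.19 over the 39 genes and -0.20 over the whole array. Each gene is given by its brightest probe set on average. The shares over all probe sets include 20071 probe sets that were Present on no blood array, so the sets compared are unlike.

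Among the enzymes, HMOX2, the constitutive heme oxygenase, was Present on every array and measured 9.78 ± 0.40 in RBC and 9.71 ± 0.48 in nRBC (SD, n = 4), with 10.46 in the heart. Its log2 difference was -0.08 (SE 0.39, limma adjusted p = 0.940). A further HMOX2 probe set gave -0.36 (adjusted p = 0.632), and no blood array had a Present call for the last. POR, the reductase that passes electrons to heme oxygenase, differed by -0.09 (SE 0.45, adjusted p = 0.938). Of the 3 enzymes listed, BLVRB was not analysed here.

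Among 9 genes of heme transport and binding, PGRMC1 was higher in nRBC. PGRMC1, a membrane protein that binds heme, measured 7.05 to 7.65 in RBC and 11.46 to 12.34 in nRBC, 24.2-fold higher (log2 difference 4.60, SE 0.36, limma adjusted p = 2.2e-04). Its further probe set, Present on no RBC array, also passed (log2 difference 2.78, adjusted p = 0.0046). In the heart PGRMC1 measured 11.12, below its nRBC mean of 11.88. The other 8 did not pass with the stages pooled. Of the 8, HPX (Present on no blood array), PGRMC2 and HEBP1 were lower in nRBC at an unadjusted p under 0.05 in limma. For ABCG2, also of the 8, nRBC minus RBC was 2.06 at E4 and -0.79 at E6 (0.63 pooled, limma adjusted p = 0.812). Each stage value rests on 2 arrays against 2. ABCG2 was Present on only 2 of the 4 RBC arrays, and its RBC mean was 4.34 at E4 and 8.91 at E6. The heme importer SLC48A1 ran from 8.68 to 11.22 in RBC and up to 10.21 in nRBC, with overlap (log2 difference -1.35, limma adjusted p = 0.316).

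None of 7 genes of iron storage, export, uptake and regulation passed the limma test. Only ACO1 had an unadjusted p under 0.05. FTH1, the ferritin heavy chain that stores the iron set free from heme, lay by its brightest probe set among the top ranks of every blood array, where quantile normalization sets the values, so that no difference is read from it. Its further probe sets differed by -0.51 (adjusted p = 0.443) and -0.75 (adjusted p = 0.316). SLC40A1, the iron exporter ferroportin, measured 5.30 ± 1.5 in RBC and 5.19 ± 0.71 in nRBC (SD, n = 4).

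None of 4 genes of bilirubin conjugation and export passed in limma, with ABCC2 and ABCC3 at an unadjusted p under 0.05. UGT1A1, the enzyme that conjugates bilirubin, and the exporter ABCC2 were Present on no blood array. ABCC3, an exporter of organic anions, measured 8.95 ± 0.23 in RBC and 7.60 ± 0.40 in nRBC, without overlap (log2 difference -1.35, adjusted p = 0.0658).

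Among the regulators of HMOX1, known chiefly from mammals, none of 7 passed in limma, with BACH1 and MAFF at an unadjusted p under 0.05. BACH1, the heme-sensing repressor of HMOX1, measured 9.65 ± 0.97 in RBC and 7.98 ± 0.88 in nRBC (log2 difference -1.66, SE 0.61, adjusted p = 0.172). The lowest adjusted p among its 4 further probe sets was 0.0524 (log2 difference -1.48), and 1 of the 4 was Absent on every blood array. NFE2L2, the activator NRF2, measured 11.76 ± 0.39 in RBC and 10.91 ± 0.81 in nRBC (adjusted p = 0.364).

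Among 10 genes that NRF2 is known to switch on, 1 was lower in nRBC and 9 did not pass. Of the 9, ME1 (higher in nRBC) and SLC7A11 (lower, Present on no blood array) had an unadjusted p under 0.05 in limma. OSGIN1, an oxidative stress response gene, measured 10.40 to 11.37 in RBC and 6.77 to 9.07 in nRBC, 5.64-fold lower in nRBC (log2 difference -2.50, SE 0.56, limma adjusted p = 0.0353). OSGIN1 had been seen as low in nRBC before this list was made. By its further probe sets the limma test was not passed, with log2 differences of -1.54 (adjusted p = 0.0681) and -1.92 (adjusted p = 0.210). The call was lost on leaving out any 1 array but E4 nRBC replicate 2 (adjusted p 0.0524 to 0.0934) and without quantile normalization (0.0502).

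**Figure D4:**
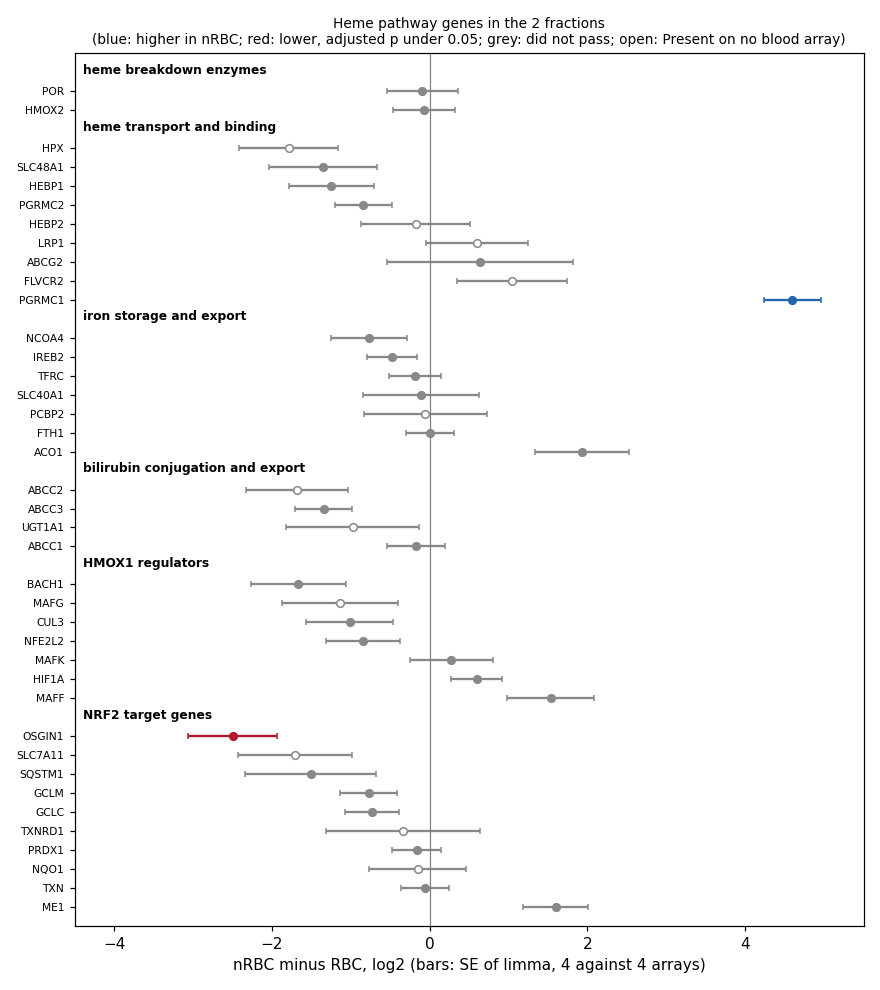
The plot gives the nRBC minus RBC log2 difference (horizontal axis) with the limma SE for the 39 genes of heme handling (vertical axis), grouped by role, with open points for genes Present on no blood array. PGRMC1 at 4.60 and OSGIN1 at -2.50 are the coloured points that passed.

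The genes most like each member over the 9 arrays were found by the root mean square difference between profiles, each centred on its own mean. Candidates were probe sets of other genes with 1 symbol and a Present call on at least 2 arrays. For HMOX1 the closest of 12974 were FLI1 (0.42 log2 units), MYO1F (0.43), SPI1 (0.48), GPD1L2 (0.49) and TMSB4X (0.50), against a median of 2.76. FLI1 and SPI1 encode transcription factors of blood cells, and MYO1F an unconventional myosin. SPI1 also stands in the macrophage list, there by another probe set that did not pass (limma adjusted p = 0.0561). By the probe sets found here, the study lists SPI1 and TMSB4X among the genes higher in nRBC, as it does HMOX1. Their likeness to HMOX1 is therefore partly built in. All 5 had a higher mean in nRBC than in the heart or in RBC, as HMOX1 had, which follows from how they were chosen.

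For BLVRA by Gga.17674.1.S1_at the closest were PON1 (0.24), IRF2 (0.28), ETFBKMT (0.30), SELENOO (0.32) and KCTD20 (0.33), against a median of 1.70. PON1 measured 11.19 in RBC, 9.58 in nRBC and 6.62 in the heart. PON1 encodes a paraoxonase and IRF2 an interferon regulatory factor. These profiles are dominated by the fractions and the heart, and the distance between the BLVRA probe sets themselves, 0.65 and 0.70 from Gga.17674.1.S1_at for the 2 further detected ones, was larger than the distance to any of these genes.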

How the data were processed

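The authors amplified RNA in 2 cycles, hybridized it to Affymetrix chicken arrays and deposited MAS5 signals, an intensity on a linear scale that was not scaled between arrays, with a detection call (P, M or A, the authors' other deposited column). For MAS5, no version is stated in the sources used here. The value table of the series equals, on the log2 scale, the deposited signals less 1 constant per array (deviating by at most 1.3e-06, column medians -0.25 to -0.14).

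The 96 Affymetrix control probe sets among 38535 were dropped. The 11 blood signals of 0 were set to 0.1, and log2 signals were quantile normalized, as in the study's methods, here over the 8 blood arrays. Fractions (4 against 4) and stages (4 group means) were tested by limma (version 3.58.1, R 4.3.3) in place of the SAM of the methods, with Benjamini-Hochberg adjustment over 38439 probe sets and no filter. Scripts were tested on simulated data. The annotation gave 1 symbol to 27168 probe sets, several to 177 and none to 11094, and the gene IDs of 26853 of the 27168 stand in the reference table. Members, lists and settings were chosen with earlier results of these data known. Named are all member probe sets, list genes that passed, genes picked for their role, up to 4 markers a list (more where a count is spelled out), and the 5 closest profiles. ABCG2 is named for its stage differences, and further genes of heme handling for an unadjusted p under 0.05. The number of arrays limits the precision. The alternatives were other normalizations, an offset of 16, an intensity trend, a detection filter (2 or more Present calls in blood), the series' value table, blocks for array scale and replicate number, each array left out, a stricter threshold, an equal-variance test per probe set and other probe sets. SAM itself was not run.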

Additional observations from a re-analysis of the deposited data

Results flagged for a closer look

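No HMOX1 or BLVRA probe set had an array far from the other 3 of its fraction. Of 88 sets of 4 arrays screened over the members and the genes of heme handling, 6 had one, by the gap to the nearest array as a share of the whole range (over Dixon's 95% critical value). Chance gives about 5%. SLC48A1, the heme importer, stood at 10.21 on E6 nRBC replicate 1 against at most 8.24 on the other nRBC arrays (share 0.887). MAFK, a partner of BACH1 and NRF2, stood at 9.57 on the same array against 7.52 to 7.73 (0.896). That array also had the highest HMOX1 signal after normalization, the highest red cell marker sum and the highest GAPDH ratio of the blood arrays. OSGIN1 was at 6.77 on E4 nRBC replicate 2 against 8.90 to 9.07 (0.926), the blood array on which the 3 detected BLVRA probe sets were lowest. In RBC, PGRMC2 was at 8.55 on E4 replicate 2 against 9.21 to 9.29 (0.898), ME1 at 6.01 on the same array against 4.70 to 4.90 (0.846) and SLC7A11 at 3.78 on E6 replicate 1 against 4.76 to 4.82 (0.947), the last 2 genes being Absent on the array named.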

How the results depend on the processing

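The signs of the fraction differences of HMOX1 and the 3 detected BLVRA probe sets held under all alternatives run, and no stage result of a member passed under any of them. With 16 added, the HMOX1 fraction difference was 3.06 and its difference of stage effects 0.062. Heart minus RBC for HMOX1 was then 1.14 (3.07 in the main setting), between signals Absent on the heart and every RBC array. For BLVRA it was -4.45, -3.49 and -3.62 (main -4.86, -4.00 and -4.56) in the order Gga.17674.1.S1_at, GgaAffx.23872.1.S1_at and Gga.6017.1.S1_s_at. Without quantile normalization heart minus RBC was -4.38 and -3.58 for the first 2, and with median scaling -4.58 and -3.78. Within the 3 arrays with few low signals, a split added after seeing the data, the fraction differences were -3.15 and -3.07 for these 2. Stage differences that did not pass turned sign. Without quantile normalization they were -0.60 for HMOX1 in nRBC, -0.10, -0.30 and -0.43 for BLVRA in RBC, -0.70 and -0.39 for GgaAffx.23872.1.S1_at and Gga.6017.1.S1_s_at in nRBC, and the fraction difference of GgaAffx.23872.1.S1_at was -2.15. With array scale as a block, these 2 gave -0.21 and -0.21 in nRBC, and Gga.6017.1.S1_s_at -0.30 as difference of stage effects; with 16 added, GgaAffx.23872.1.S1_at gave -0.0082 in nRBC. Gga.11214.1.S1_at, Absent throughout, gave -0.029 without quantile normalization and -0.55 with array scale as a block for the difference of stage effects.

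With 1 array left out, HMOX1 ran from -0.44 to 0.79 for the stage difference in nRBC and -0.97 to 0.27 for the difference of stage effects, GgaAffx.23872.1.S1_at from -0.54 to 0.54 and -0.74 to 0.34, Gga.6017.1.S1_s_at from -0.46 to 0.93 and -0.56 to 0.83 and from -0.38 to 0.56 in RBC, and Gga.11214.1.S1_at from -0.66 to 2.39 in RBC and -1.01 to 2.05 for the difference of stage effects. An arm left with 1 array was assumed to vary like the other groups. The probe sets higher in nRBC numbered 1753, or 1150 to 1546 with 1 array left out, and 905 at an adjusted p under 0.01. More were higher with 16 added (2346), with the detection filter (2147 of the 15319 kept) and with an intensity trend (2203). Those lower numbered 311, or 132 to 250 with 1 array left out, 43 without quantile normalization, 987 with 16 added, 741 with the detection filter, 705 with an intensity trend and 38 at an adjusted p under 0.01. For the stage contrast in RBC, 1 probe set passed with 16 added, 10 with the detection filter and 3 with an intensity trend. Of the genes of heme handling, 3 were higher and 2 lower in nRBC with 16 added, with the detection filter and with an intensity trend, which added ACO1, ME1 and ABCC3; 0 were lower at an adjusted p under 0.01 and without quantile normalization; and with 1 array left out 1 to 2 were higher and 0 to 1 lower. PGRMC1 passed under all 16 alternative fits (largest adjusted p 0.0064 from limma) and OSGIN1 under 8.

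Arrays of different groups are linked only by a replicate number, and whether that number marks a shared pool is not stated. Deviations of same-numbered arrays correlated at 0.08 at E4 and -0.05 at E6 across the fractions, and at 0.14 in RBC and -0.06 in nRBC across the stages. With the replicate block, 109 probe sets were lower in nRBC, PGRMC1 and OSGIN1 still passed, and no member passed for stage. With 2 arrays a group, even large changes between stages could go undetected. In RBC the E6 minus E4 difference was 5.78 for RHAG and 4.57 for ABCG2, each with a limma adjusted p of 0.288. They were the largest among the markers and the genes of heme handling. RHAG was Present on 3 of the 4 RBC arrays and ABCG2 on 2, so their sizes rest in part on signals not called Present.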

Other observations

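Genes that lie next to HMOX1 and BLVRA in the chicken genome (order of protein-coding genes in the RefSeq annotation of GRCg7b, used for neighbours only) were looked up after the values above had been seen. Of the 3 neighbours on each side of HMOX1, RASD2, a small GTPase, passed as higher in nRBC (log2 difference 4.60, limma adjusted p = 0.0126). It was Present on only 1 nRBC array and on no RBC array, so no fold is given. A share of 4.56% of all probe sets passed as higher in nRBC, and nothing is read from this 1 call. In the heart RASD2 was higher still (9.12 against an nRBC mean of 5.97). The adjacent genes did not pass: for MCM5, a subunit of the replicative helicase, nRBC minus RBC was 0.03 (adjusted p = 0.987), and for TOM1, a protein of endosomal sorting, -0.21 (adjusted p = 0.773). None of the 3 neighbours on each side of BLVRA passed in limma, with log2 differences from 0.12 to 1.23 and none at an unadjusted p under 0.05. The adjacent STK17A, a kinase, differed by 1.23 (adjusted p = 0.256), opposite in sign to BLVRA.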
